A study of Mus musculus with 4 samples.

Results

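The genes described here make fatty acids and put double bonds into them. They were chosen by name: Scd1, Scd2, Fasn, Acaca, Acly, Fads1, Fads2, Elovl1, Elovl5 and Elovl6, 10 genes in all. Of these, 9 were among the 13792 genes measured, with 11 transcript rows, and Fads2 was not analysed here. For each gene the transcript row of highest mean was used. The cells were regulatory T (Treg) cells, a class of T cell that depends on Foxp3 and keeps immune reactions in check, sorted from the spleens of C57BL/6 mice. There were 2 libraries from mice with a conditional knockout of Nsd2 in Treg cells (cKO) and 2 libraries from wild-type (WT) mice. A library pooled the RNA of 3 or more mice, so replicates differ as pools do and not as single animals. The labels name neither the Cre driver nor the deleted exons, and they give no age or sex. Nsd2 writes dimethylation on lysine 36 of histone H3.

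Fatty acid synthesis starts from citrate, which leaves the mitochondrion through the carrier Slc25a1 and is split by Acly into acetyl-CoA and oxaloacetate. Acaca carboxylates acetyl-CoA to malonyl-CoA, the committed step, and Fasn joins these units into palmitate. Elongases of the Elovl family lengthen the chain, stearoyl-CoA desaturases (Scd) turn saturated chains into monounsaturated ones such as oleate, and Fads1 and Fads2 add double bonds to polyunsaturated chains. Most of these genes are known targets of the transcription factors encoded by Srebf1 and Srebf2. Malonyl-CoA inhibits Cpt1a, the gate of mitochondrial fatty acid oxidation, so synthesis and oxidation are opposed in the same cell.

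Levels are in RPKM, read counts divided by transcript length and library depth. The smallest steps between low values gave a depth of 19216000 and 21235000 reads for cKO replicates 1 and 2, and 19493000 and 19085000 reads for WT replicates 1 and 2. Nsd2, listed under its older symbol Whsc1, stood at 3.46 and 4.27 RPKM in the cKO libraries and at 6.82 and 7.44 RPKM in the WT libraries. Treg identity was plain in every library, with Foxp3 at 145 and 113 RPKM in cKO and at 144 and 128 RPKM in WT. Across the 10531 genes that averaged 1 RPKM or more, limma on log2(RPKM + 1) called 0 genes at an adjusted p of 0.05 (0.0%), and 333 (3.16%) had an unadjusted p under 0.05, of which 228 (2.17%) were higher and 105 (0.997%) lower in cKO. With all 4 libraries, therefore, no gene described here passed the test across all genes, whatever its direction. With 2 libraries against 2, an exact permutation test on a single gene cannot go below p = 0.333.

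Scd2 was the member that differed most between genotypes, in a pathway whose other members differed little or in the opposite direction. Of the 8 members tested, 3 (Scd2, Fasn and Acly) were higher in both cKO libraries than in both WT libraries, an arrangement found for 17.4% of all genes tested. Elovl5 and Elovl6, 2 of the 8, were lower in both cKO libraries, as were 9.02% of all genes tested. After median-of-ratios scaling these background shares were 13.1% and 12.7%, and the members' counts were still 3 and 2. The median log2 fold change over the 8 tested members was 0.03, the same as over all genes tested (0.03). By limma 1 of the 8 members had an unadjusted p under 0.05 (Scd2, where 2.17% of all genes were higher at that level) and 0 were lower (0.997%). Scd1 was too low to be tested.

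**Figure D1:**
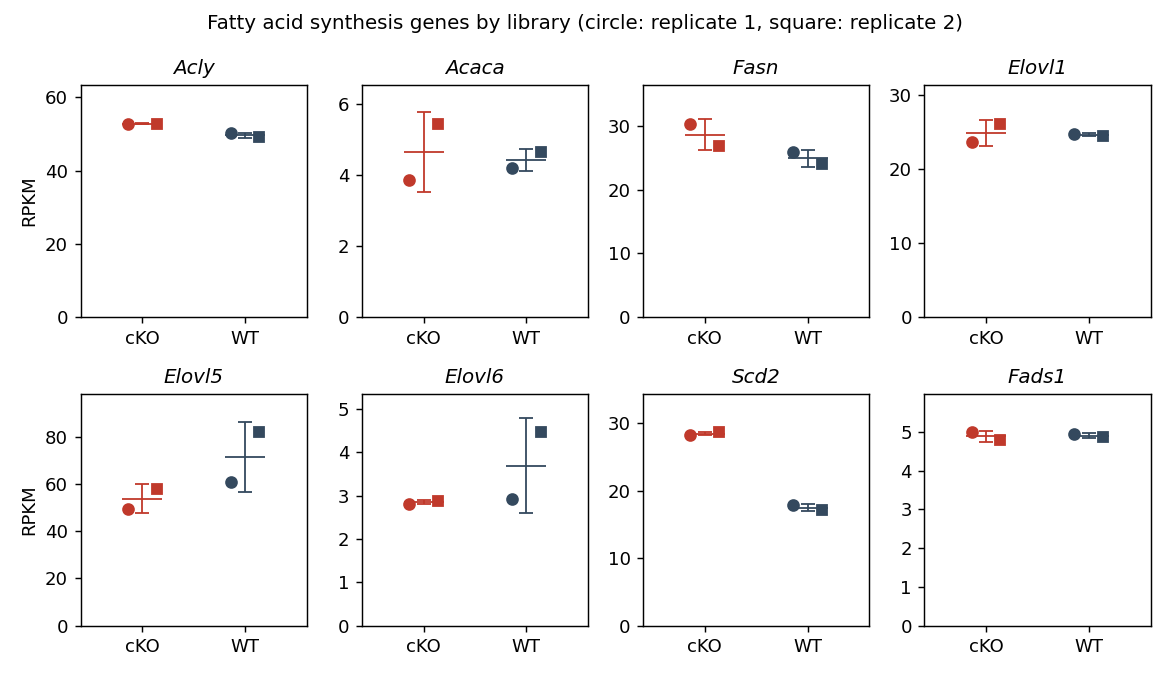
RPKM (vertical axes, each starting at 0) of the 8 tested members in the 2 cKO libraries (red) and the 2 WT libraries (dark blue), with replicate 1 as a circle and replicate 2 as a square; horizontal bars are means and whiskers are SD. The cKO libraries stand at 28.3 and 28.7 RPKM for Scd2, above both WT libraries, while Elovl5 and Elovl6 are highest in WT replicate 2.

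Acly, Acaca and Fasn form the trunk of the pathway. Acly, the ATP citrate lyase, stood at 52.6 and 52.8 RPKM in cKO and at 50.1 and 49.0 RPKM in WT. The cKO mean was higher by 6.35%, with no overlap between the groups and a log2 fold change of 0.09 (standard error 0.12). Fasn, the fatty acid synthase, stood at 30.4 and 27.0 RPKM in cKO and at 25.9 and 24.0 RPKM in WT. Its mean was 28.7 ± 2.47 RPKM in cKO and 25.0 ± 1.35 RPKM in WT (SD, n = 2 each), higher by 14.9%. The Fasn groups were separated by about 1 RPKM, less than the SD within cKO, and limma's unadjusted p was 0.19. Its log2 fold change was 0.19 with all libraries and 0.11 without cKO replicate 1, within a range of 0.11 to 0.28 over the 4 libraries left out in turn. Acaca, the acetyl-CoA carboxylase, stood at 3.85 and 5.45 RPKM in cKO and at 4.19 and 4.64 RPKM in WT. The lowest and the highest Acaca value both came from cKO, so the groups overlapped, and the 95% interval of the log2 fold change ran from -0.40 to 0.50. Acaca overlaps Tada2a by 10 bases at one edge and spans Gm11437, which was not analysed here.

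Of the elongases, Elovl5 and Elovl6 were lower in cKO and Elovl1 overlapped between the genotypes, none past the test. Elovl5, which lengthens polyunsaturated chains, was the member with the highest level, at 49.4 and 58.0 RPKM in cKO and at 60.9 and 81.8 RPKM in WT. Both cKO libraries lay below both WT libraries, and the cKO mean was 24.8% lower (53.7 ± 6.11 against 71.4 ± 14.8 RPKM, SD, n = 2 each). Its log2 fold change was -0.39 (standard error 0.18, limma unadjusted p = 0.0766), with -0.30 for the pair of replicates 1 and -0.49 for the pair of replicates 2. The size depended on single libraries, with -0.18 without WT replicate 2 and -0.60 without WT replicate 1. Without cKO replicate 1 it was -0.28 and without cKO replicate 2 it was -0.51. In a group of 2, leaving out either library moves the value equally far in opposite directions. Elovl6, which lengthens palmitate to stearate, the substrate of the Scd enzymes, stood at 2.81 and 2.88 RPKM in cKO and at 2.91 and 4.46 RPKM in WT. Here WT replicate 2 stood apart: without it the log2 fold change was -0.02, without WT replicate 1 it was -0.51, and with all libraries it was -0.26. Elovl1, which makes very long saturated chains, stood at 23.7 and 26.2 RPKM in cKO and at 24.8 and 24.5 RPKM in WT, with both WT values between the cKO values. The other Elovl1 transcript rows ran from 20.9 to 24.5 RPKM and overlapped between genotypes too. The annotated end of Elovl1 overlaps Cdc20 by 53 bases, and the sources used here do not state whether counting used strand.

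The desaturases held both the largest difference and the lowest level. Scd2 stood at 28.3 and 28.7 RPKM in cKO and at 17.8 and 17.1 RPKM in WT, which was about 2965 and 3320 reads in cKO and 1897 and 1781 reads in WT. Replicates lay close together and the groups far apart: the means were 28.5 ± 0.264 RPKM in cKO and 17.5 ± 0.518 RPKM in WT (SD, n = 2 each), a ratio of 1.63. The log2 fold change was 0.67 (standard error 0.11, 95% interval 0.39 to 0.96). The pair of replicates 1 gave 0.64 and the pair of replicates 2 gave 0.71. In limma the unadjusted p was 0.00125 and the adjusted p 0.9998, so the difference did not pass across all genes. Leaving out each library in turn gave log2 fold changes from 0.65 to 0.70, and none of these fits called Scd2. Fads1, the desaturase of arachidonate synthesis, stood at 4.99 and 4.78 RPKM in cKO and at 4.95 and 4.86 RPKM in WT. The Fads1 groups overlapped, with a 95% interval of the log2 fold change from -0.33 to 0.32, which leaves room for a moderate difference in either direction.

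Mice carry a cluster of Scd genes on chromosome 19 (GRCm38), with Scd2 at chr19:44293676-44306864 and Scd1 at chr19:44394450-44407709. Scd1 is known as the main form of liver and fat, while Scd2 is expressed in many tissues and is prominent in the brain. In these Treg libraries Scd1 stood at 0.0215 and 0.0389 RPKM in cKO and at 0.0318 and 0.0648 RPKM in WT. These values stand for 2 and 4 reads in the cKO libraries and 3 and 6 reads in the WT libraries, and a difference between genotypes was not detectable at this depth. Scd3 stood at 0.225 and 0.434 RPKM in cKO and at 0.266 and 0.436 RPKM in WT, with overlapping groups. Scd4 stood at 0.508 and 0.413 RPKM in cKO and at 0.234 and 0.357 RPKM in WT, or 32 and 29 reads in cKO and about 15 and 23 reads in WT. The Scd4 groups did not overlap, but counting error was 17.6% to 25.8% of a value, and Scd4 was too low to be tested. Nearly all Scd signal was thus Scd2. Over the 4 libraries the mean RPKM of Scd2 was 585 times that of Scd1, with a 95% exact Poisson interval of 355 to 1046 from the 15 Scd1 reads, which covers counting error only.

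**Figure D2:**
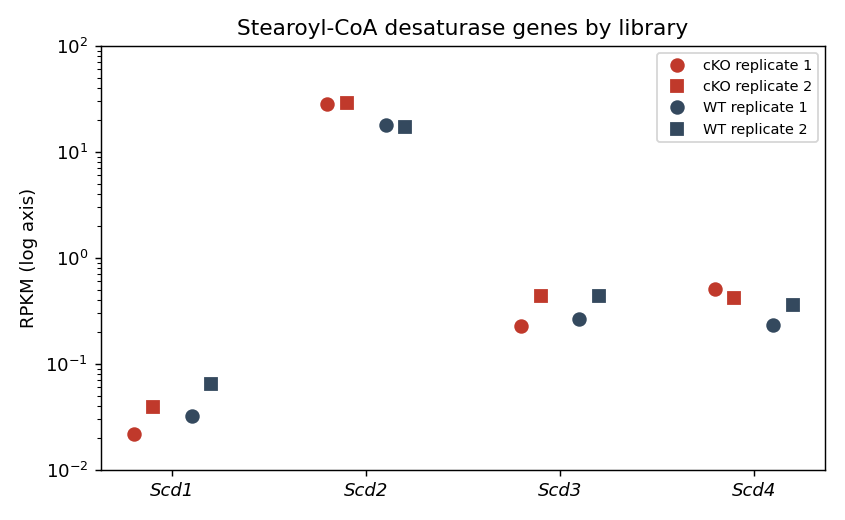
RPKM on a log axis for the Scd genes in the cKO libraries (red) and the WT libraries (dark blue), with circles for replicate 1 and squares for replicate 2. Scd2 lies between 17.1 and 28.7 RPKM, and Scd1, Scd3 and Scd4 lie below 1 RPKM in every library.

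Scd1 and Scd2 resemble each other in their coding parts, so the contrast between them depends on where 50-nt reads can be told apart. Their coding sequences (1065 and 1074 bases in GENCODE M21) are 89.6% identical over their alignment. The longest identical run is 147 bases. It is printed with 15 bases on each side, from the coding strand, and the capitals mark the letters that differ between the genes. The Scd2 stretch comes from exons within chr19:44299687-44301260 (plus strand) and the Scd1 stretch from exons within chr19:44400326-44401820 (minus strand), both on GRCm38.
Scd2: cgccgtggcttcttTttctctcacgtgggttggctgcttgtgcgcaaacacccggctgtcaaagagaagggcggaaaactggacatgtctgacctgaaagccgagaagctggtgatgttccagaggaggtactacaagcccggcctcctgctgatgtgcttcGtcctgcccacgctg
Scd1: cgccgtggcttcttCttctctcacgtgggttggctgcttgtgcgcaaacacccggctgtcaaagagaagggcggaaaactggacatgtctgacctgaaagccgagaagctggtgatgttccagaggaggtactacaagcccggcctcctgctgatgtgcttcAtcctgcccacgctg
A 50-nt read from inside this run fits both genes. Of the 5406 windows of 50 bases along the Scd2 transcript, 145 (2.68%) also occur in the Scd1 transcript, all of them in the coding sequence. Both transcripts consist mostly of untranslated sequence, where no window was shared. The coding part, 1074 of the 5455 bases of the Scd2 transcript, also has more unshared than shared windows. Over all Scd2 transcripts, 2.49% of distinct 50-base windows also occur in Scd3 and 1.12% in Scd4. The sources used here do not state how reads with more than 1 match were counted.

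Set in order of mean level, the members ran from Elovl5 (62.5 RPKM) and Acly (51.2 RPKM) through Fasn (26.8), Elovl1 (24.8) and Scd2 (23.0) to Fads1 (4.90), Acaca (4.53), Elovl6 (3.27) and Scd1 (0.0392 RPKM). RPKM is a per-length scale, so these levels can be set side by side. Elovl5 had a higher mean than 94.3% of the genes measured, Scd2 than 80.1%, and Scd1 than 0.964%. Neighbours overlapped in their ranges over the 4 libraries, except at the steps between Acly and Fasn, between Scd2 and Fads1 and between Elovl6 and Scd1. The place of Scd2 in this order differed by genotype. In cKO its mean (28.5 ± 0.264 RPKM) lay beside that of Fasn (28.7 ± 2.47 RPKM), and in WT its mean (17.5 ± 0.518 RPKM) lay below that of Elovl1 (24.7 ± 0.186 RPKM; SD, n = 2 each). The ratio of Scd2 to Fasn within a library, which no scaling of the library can change, was 0.929 and 1.06 in cKO and 0.688 and 0.712 in WT. The ratio of Scd2 to Elovl5 was 0.573 and 0.494 in cKO and 0.293 and 0.209 in WT. The ratio of Scd2 to Fasn was higher in each cKO library than in each WT library. For Scd2 to Elovl5 this had to be so, because Scd2 already lay above and Elovl5 below both WT libraries.

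The genes of lowest distance to Scd2 in pattern were Ifitm2, Tmem160, Cdca3, S100a6 and Nrn1. The distance was Euclidean, on log2(RPKM + 1) values centred on each gene's own mean over the 4 libraries, among the 8306 genes that averaged 4 RPKM or more. Ifitm2 lay at a distance of 0.08, with 6.14 and 5.85 RPKM in cKO and 3.43 and 3.50 RPKM in WT, and Nrn1 at 0.14. With 4 libraries, such likeness says little more than that these genes share a size of difference. None of the other members of the pathway was among them.

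The 17 transcriptional regulators of the pathway that could be tested differed less than Scd2, with log2 fold changes from -0.15 to 0.25. Regulators that averaged under 1 RPKM were left out of this comparison. Srebf1 stood at 32.2 and 27.2 RPKM in cKO and at 28.4 and 22.8 RPKM in WT. The groups overlapped, although the cKO library was the higher in each pair of the same number (log2 fold changes of 0.18 and 0.24). Its 1 row does not separate the forms of the Srebf1 transcript. Srebf2, the regulator best known for sterol genes, stood at 67.2 and 63.6 RPKM in cKO and at 62.1 and 59.5 RPKM in WT, a mean higher by 7.59%. Insig1, a target of these factors that holds their precursors in the endoplasmic reticulum, stood at 11.04 and 13.6 RPKM in cKO and at 11.1 and 9.88 RPKM in WT. The Insig1 difference came from the pair of replicates 2 (log2 fold change 0.42), with -0.0037 in the pair of replicates 1. Nr1h2 (LXR beta), a nuclear receptor that induces Srebf1 and Scd genes, stood at 52.5 and 43.1 RPKM in cKO and at 53.7 and 48.4 RPKM in WT. Its relative Nr1h3 (LXR alpha) stood at 1.07 and 0.60 RPKM in cKO and at 0.796 and 0.638 RPKM in WT, under the filter of 1 RPKM. Their partner Rxra stood at 8.36 and 7.68 RPKM in cKO and at 7.10 and 6.12 RPKM in WT, without overlap. Of the 17 regulators tested, 2 had separated groups with cKO above (Rxra and Srebf2), 0 with cKO below and 0 had an unadjusted p under 0.05. Over all genes tested these shares were 17.4%, 9.02% and 3.16%. After median-of-ratios scaling Rxra alone lay above and 0 below, beside 13.1% and 12.7% of all genes.

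**Figure D3:**
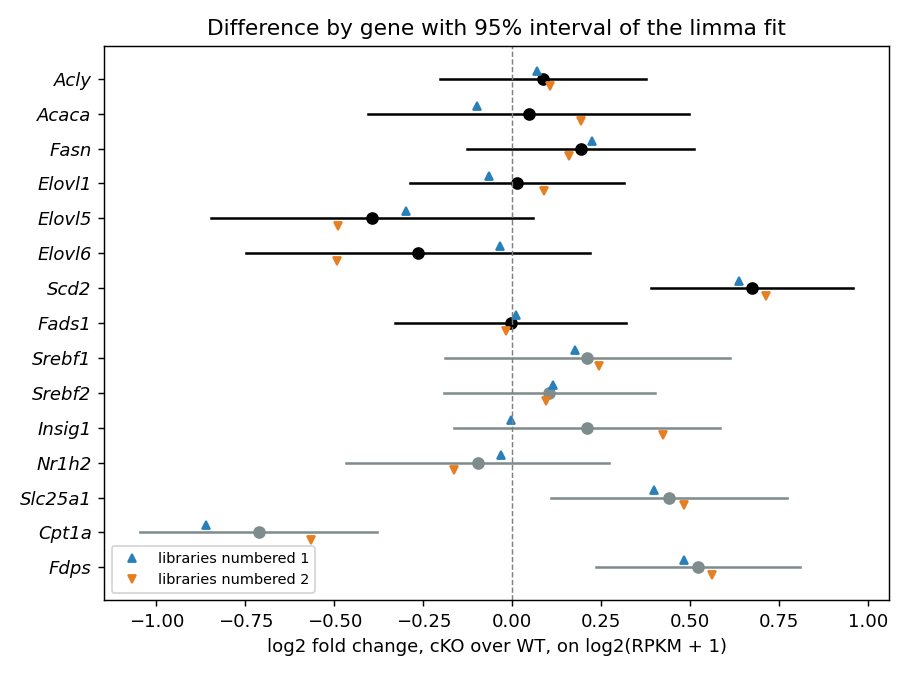
Log2 fold change of cKO over WT on log2(RPKM + 1) (horizontal axis) for the 8 tested members (black) and for regulators and pathway genes (grey), with 95% intervals from limma; triangles give the pairs of replicates 1 and 2. The interval of Scd2 runs from 0.39 to 0.96 and that of Cpt1a from -1.05 to -0.38, while those of the other 7 members include 0.

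Upstream of Acly, the citrate carrier Slc25a1 was higher in both cKO libraries. It stood at 15.7 and 14.4 RPKM in cKO and at 11.6 and 10.1 RPKM in WT, with a log2 fold change of 0.44 (standard error 0.13, limma unadjusted p = 0.0179, adjusted p = 0.9998). Of the 9 precursor supply genes tested, 2 lay above both WT libraries (Slc25a1 and Mcat, the mitochondrial malonyl transferase) and 0 below, with a median log2 fold change of 0.07. Mcat was higher by 8.65%, and after median-of-ratios scaling 1 gene of the list lay above and 1 below. Over all genes tested 17.4% lay above and 9.02% below, or 13.1% and 12.7% after that scaling. Acacb, the carboxylase of the mitochondrial surface, stood at 0.282 and 0.233 RPKM in cKO and at 0.193 and 0.185 RPKM in WT, far under Acaca.

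Around the elongases and desaturases, 8 of 9 tested genes of the elongation cycle and of electron supply had a positive log2 fold change (median 0.07). Over all genes tested 59.3% did so, or 48.0% after median-of-ratios scaling, when 7 of these 9 did. Cyb5r3 and Cyb5r1, reductases of cytochrome b5, which carries electrons to the desaturases, had separated groups with cKO above. In 1 other gene of the list both cKO libraries lay below. After that scaling 1 gene lay above and 1 below. Over all genes tested 17.4% lay above and 9.02% below, or 13.1% and 12.7% after that scaling. Cyb5r3 stood at 19.8 and 17.5 RPKM in cKO and at 17.2 and 13.3 RPKM in WT, with a log2 fold change of 0.28 (standard error 0.16). Cyb5r1 stood at 9.05 and 9.25 RPKM in cKO and at 7.28 and 8.64 RPKM in WT. The 3 other desaturases and elongases that could be tested, the ceramide desaturases Degs1 and Degs2 and the less studied Fads6, had log2 fold changes from 0.04 to 0.09, and their groups overlapped.

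Downstream, the largest difference was in oxidation rather than in storage. Cpt1a, which loads fatty acids onto carnitine for entry into mitochondria, stood at 15.6 and 16.2 RPKM in cKO and at 29.1 and 24.4 RPKM in WT. Both cKO libraries were far below both WT libraries, and the cKO mean was 40.7% lower (15.9 ± 0.43 against 26.7 ± 3.31 RPKM, SD, n = 2 each). Its log2 fold change was -0.71 (standard error 0.13, limma unadjusted p = 0.00212, adjusted p = 0.9998), with -0.86 for the pair of replicates 1 and -0.56 for the pair of replicates 2. Cpt1a was the 1 gene with an unadjusted p under 0.05 among 19 tested genes of mitochondrial oxidation, beside 3.16% of all genes tested. The median over these 19 genes was 0.01, and 2 of them lay above and 2 below both WT libraries. Over all genes tested 17.4% lay above and 9.02% below. After median-of-ratios scaling 2 of the 19 lay above and 3 below, beside 13.1% and 12.7% of all genes. Hadh, a dehydrogenase of the oxidation cycle, stood at 19.3 and 21.5 RPKM in cKO and at 18.5 and 17.3 RPKM in WT. The ratio of Cpt1a to Fasn within a library was 0.511 and 0.60 in cKO and 1.12 and 1.01 in WT. This ratio had to separate the groups, because Cpt1a already lay below and Fasn above both WT libraries.

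Genes of uptake, esterification and lipid droplets showed no common direction. Slc27a3, an acyl-CoA synthetase of the fatty acid transport family, stood at 1.91 and 1.02 RPKM in cKO and at 2.67 and 2.10 RPKM in WT, and Dbi, the acyl-CoA binding protein, at 20.4 and 20.0 RPKM in cKO and at 18.9 and 15.1 RPKM in WT. Of the 10 genes tested in that list, 5 had a log2 fold change above 0, beside 59.3% of all genes tested. After median-of-ratios scaling 5 of the 10 still did so, beside 48.0% of all genes. Plin2, a coat protein of lipid droplets, stood at 6.73 and 5.26 RPKM in cKO and at 6.84 and 12.0 RPKM in WT. As with Elovl6, WT replicate 2 stood apart: the log2 fold change of Plin2 was -0.54 with all libraries, -0.17 without WT replicate 2 and -0.90 without WT replicate 1, where limma's adjusted p was 0.0433. Mboat1, an acyltransferase of phospholipids, stood at 4.17 and 4.21 RPKM in cKO and at 3.09 and 3.64 RPKM in WT. Of 20 tested genes of esterification and lipid droplets, 2 lay above both WT libraries and 3 below, with a median log2 fold change of 0.02. Over all genes tested 17.4% lay above and 9.02% below. After median-of-ratios scaling 1 gene of the list lay above and 3 below, beside 13.1% and 12.7% of all genes.

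**Figure D4:**
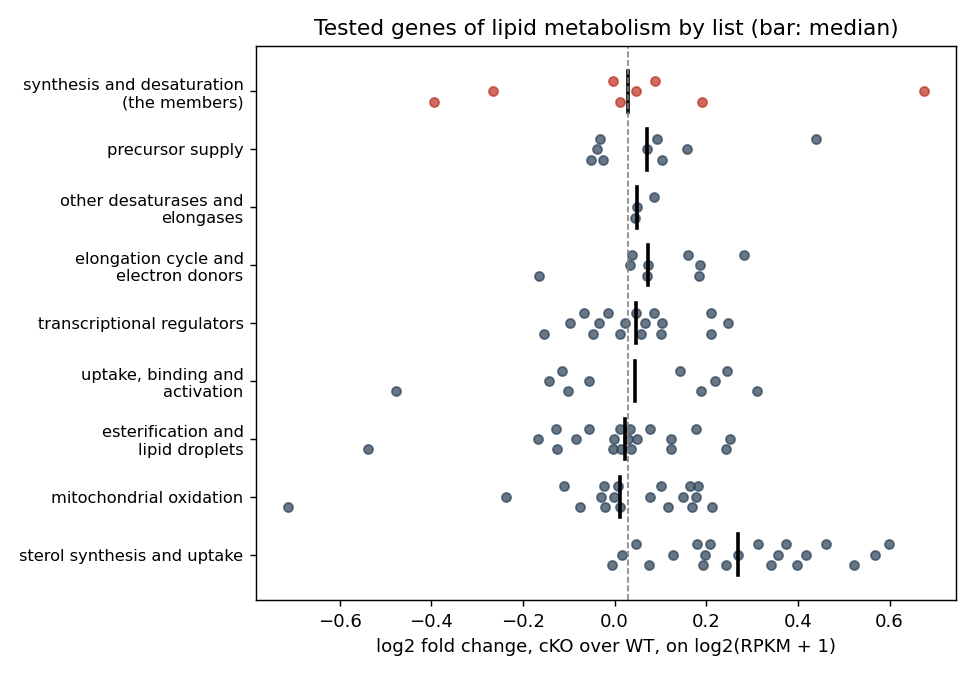
Log2 fold change of cKO over WT on log2(RPKM + 1) (horizontal axis) of each tested gene, with 1 line per list, the members in red; black bars are medians and the dashed line is the median over all genes tested, 0.03. The members spread from -0.39 to 0.67 around a median of 0.03, and the sterol genes have a median of 0.27.

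Sterol genes, which share the Srebf factors with the members, lay higher as a list. Of 21 tested genes of sterol synthesis and uptake, 20 had a positive log2 fold change, 14 had separated groups with cKO above and 0 with cKO below. Over all genes tested these shares were 59.3%, 17.4% and 9.02%. After median-of-ratios scaling 19 of the 21 were positive, 13 lay above and 0 below, beside 48.0%, 13.1% and 12.7% of all genes. The median of the list was 0.27, and 0.24 after that scaling. Fdps, a synthase of the isoprenoid chain that feeds sterols, stood at 18.03 and 18.4 RPKM in cKO and at 12.6 and 12.2 RPKM in WT, a ratio of 1.47. Scd2 had a log2 fold change (0.67) above that of each of the 21 sterol genes, while Fasn (0.19), Acly (0.09) and Acaca (0.05) lay below the median of that list. These lists were named with earlier results of the same libraries known, and the difference between them was not tested.

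Promoter sequences were at hand for Acly, Acaca, Fasn, Elovl1, Elovl5, Elovl6 and Fads2 from RefSeq (GRCm38.p6), 250 bases before to 50 bases after a start. Those of Fasn and Elovl5 are shown because their groups did not overlap and lay in opposite directions. Capitals mark CCAAT on either strand, the letters bound by the factor NF-Y, which acts beside the Srebf factors at many of their targets. Fasn lies at chr11:120824498-120824797 (minus strand) and Elovl5 at chr9:77917115-77917414 (plus strand).
Fasn: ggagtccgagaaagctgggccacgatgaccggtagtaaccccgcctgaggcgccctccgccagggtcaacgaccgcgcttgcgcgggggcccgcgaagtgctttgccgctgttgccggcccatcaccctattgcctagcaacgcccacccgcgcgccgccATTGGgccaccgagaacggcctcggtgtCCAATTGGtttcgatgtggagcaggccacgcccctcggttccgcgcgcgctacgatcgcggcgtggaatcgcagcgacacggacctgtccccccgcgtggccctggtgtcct
Elovl5: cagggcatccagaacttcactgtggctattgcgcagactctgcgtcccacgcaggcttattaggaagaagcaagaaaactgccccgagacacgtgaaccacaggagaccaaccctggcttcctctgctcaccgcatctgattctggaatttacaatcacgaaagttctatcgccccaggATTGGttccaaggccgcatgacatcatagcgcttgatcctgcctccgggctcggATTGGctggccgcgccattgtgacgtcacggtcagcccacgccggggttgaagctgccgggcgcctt
The Fasn promoter holds 3 matches to CCAAT, of which 2 overlap each other on opposite strands, and the Elovl5 promoter holds 2. The Acly promoter and 1 Elovl1 promoter hold 1 each, and those of Acaca, Elovl6 and Fads2 and the other of Elovl1 hold 0. Of 32851 promoters of the same length, 37.4% hold at least 1. The E-box CACGTG occurs in the Elovl5 promoter and in 7.15% of all promoters. The sterol element TCACNCCAC, searched on both strands, had no match in the promoters of these members and is found in 1.24% of all promoters. The box GGGCGG, present in 35.7% of all promoters, occurs 4 times in Acly, 5 and 2 times in the promoters of Elovl1, whose groups overlapped, and once in Fads2, and has no match in Acaca, Fasn, Elovl5 or Elovl6. These are matches of letters, and binding was not measured. The promoters of Acaca, Fasn and Elovl1 used here lie inside the annotated genes, and other starts of these genes were not searched.

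Markers of other cells were measured beside these values. Fat cells are rich in Scd1 and Fasn, and of 8 adipocyte markers 1 had a row (Lpl, at 0.206 and 0.128 RPKM in cKO and 0.0253 and 0.116 RPKM in WT), and Adipoq, Plin1 and Fabp4 were not analysed here. The summed level of the 6 B cell markers with a row was 12.1 and 11.3 RPKM in cKO and 8.75 and 7.12 RPKM in WT, so it moved with Scd2, and its part in the result was not tested. Most of that sum was Cd79b, and Ms4a1, Pax5 and Ebf1 were among the markers not analysed here. The 12 markers of macrophages, monocytes and dendritic cells with a row summed to 28.9 and 9.72 RPKM in cKO and 10.8 and 15.9 RPKM in WT, highest in cKO replicate 1. Erythroid markers with a row summed to 33.3 and 5.56 RPKM in cKO and 18.6 and 8.83 RPKM in WT, again highest in cKO replicate 1. The log2 fold change of Scd2 was 0.68 without cKO replicate 1 and 0.67 without cKO replicate 2. Whether other cells contributed to the Scd2 difference was not tested. In bulk RNA, fewer cells of a type and less RNA per cell cannot be told apart.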

How the data were processed

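RNA-seq of sorted splenic Treg cells gave 4 libraries, 2 cKO and 2 WT, grouped by their titles in the labels. The authors deposited RPKM values per RefSeq transcript; the files name no unit, so it was inferred from their range and steps. The submitters' processing notes list HISAT2, DESeq2 and mm10 without roles or versions, and the sources used here do not state the counting tool. Whole reads were recovered from the steps of low RPKM values with GENCODE M21 transcript lengths (64.9% to 67.4% of low values within 0.1 of a whole read). Of 19291 rows, 16720 were named by accession and 968 by symbol; 1603 rows with no gene name (11.6% of the RPKM sum) were left out.

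The row of highest mean stood for each gene. Genes that averaged 1 RPKM or more were tested with limma 3.58.1 (R 4.3.3; trend and robust options, two-sided, Benjamini-Hochberg at 0.05, genotype as the only term) on log2(RPKM + 1), a scale that understates the change of low genes; the scripts were tested on simulated data. P-values measure the spread between pools, which may be partly technical. Ratios and means are of RPKM. The genes named beside the members are fixed regulators, up to 2 genes of lowest p with separated groups from each pathway list with at least 4 tested genes, and the 5 nearest in pattern to Scd2; Acacb, Degs1, Degs2, Fads6, Lpl and Cd79b were named after their values were seen. Results for 1 further gene under this rule are not reported here. The members and lists were chosen with earlier results of these data known. Alternatives were scaling, pseudocount, filter, transcript row, moderation, replicate block and leaving out each library. Figures used matplotlib 3.10.9 under Python 3.11.15.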

Additional observations from a re-analysis of the deposited data

How the results depend on the processing

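Scd2 kept its direction in all settings run, from 0.64 with median-of-ratios scaling to 0.70 with a pseudocount of 0.1 RPKM or without WT replicate 1, and passed the threshold in none of them. The replicate numbers were shared in the labels only; libraries of the same number deviated together (correlation of deviations 0.51), and with 2 pairs this does not show pairing. With the replicate block as a term, limma called 1 gene (Cxcr4, not a member) and 1631 genes had an unadjusted p under 0.05, against 333 without it; adjusted p-values were 0.0618 for Scd2, 0.118 for Elovl5, 0.087 for Cpt1a and 0.107 for Slc25a1, so the block changed no member's call. Leaving out 1 library called 37 to 75 genes over all genes (37 without cKO replicate 1, 75 without cKO replicate 2, 66 without WT replicate 1 and 38 without WT replicate 2), in fits where the lone library is assumed to vary like the other group. Members above WT numbered 3 to 5, with 5 without cKO replicate 1. Members below WT numbered 1 (mean of at least 4 RPKM) to 4 (without cKO replicate 2), with 3 without cKO replicate 1. A lone library falls outside the range of the other group more easily than a pair does. The share over all genes is not given for these fits, so the higher counts are not read as a result about the members. Signs turned within the left-out ranges of Fads1 (-0.0295 to 0.0212), Acaca (-0.16 to 0.25), Elovl1 (-0.0568 to 0.0823), Nr1h2 (-0.24 to 0.0417) and Foxp3 (-0.26 to 0.10), and Elovl1 stood at -0.0246 with median-of-ratios scaling; the cause was not tested. Single libraries also moved Srebf1 (0.06 to 0.36), Insig1 (0.07 to 0.35), Cyb5r3 (0.11 to 0.46), Slc27a3 (-0.74 to -0.21) and Dbi (0.09 to 0.40), among other genes named, by over 1.5 times. Nsd2 passed without cKO replicate 2 (limma adjusted p = 0.0285). With no filter, 593 of 13792 genes had an unadjusted p under 0.05, and with at least 4 RPKM 218 of 8306 did. The median of the members ran from -0.02 to 0.09 over all settings. Depth limits Scd1, Scd3 and Scd4, where counting error was 17.6% to 70.7% of a value.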
